A study of Homo sapiens with 4 samples.

Results

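The genes described are 49 genes of the TGF-beta, BMP and activin pathway, chosen by name as ligands, latency and processing factors, antagonists, receptors, SMADs, intracellular regulators, ID genes and the matrix target TGFBI. All 49 were found among the 57879 genes of the deposited tables, each as 1 gene identifier. They were followed in RNAseq libraries of T24 cells, a human bladder carcinoma line, with 2 libraries of control cells and 2 of cells that carried the catalytic domain of TET1 (TET1-CD, written TET1CD in the labels). Per the study's methods, the control cells carried an empty vector, and the TET1 cDNA was cloned behind a FLAG tag in the lentiviral vector pCDH. Both groups were infected with virus, selected with puromycin and grown in RPMI with fetal calf serum. The labels name the source of all 4 libraries T24_induced and name no inducer. They give no promoter for the insert, do not say whether a line was a clone, and do not say whether the libraries of a group came from separate cultures. The p-values below therefore measure the spread between these libraries, which may be technical. TET1 is an enzyme that oxidizes methylated cytosine in DNA, and its catalytic domain alone keeps that activity.

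TGF-beta family ligands are secreted dimers that bring together type II and type I receptor kinases at the cell surface. The type I receptor then phosphorylates receptor SMADs, with SMAD2 and SMAD3 mostly serving TGF-beta and activin and SMAD1 and SMAD5 mostly serving BMPs. These enter the nucleus with SMAD4 and regulate target genes. TGF-beta is secreted in a latent complex that is bound to the matrix by LTBP proteins, activins are captured by follistatin, and BMPs by noggin, chordin and gremlin. In epithelial tumors the pathway is known both for growth arrest and for mesenchymal change and matrix production.

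The libraries held 17442136 to 20295260 estimated fragments, and the totals of the groups overlapped. TET1 itself went from 111 and 83 counts in control to 2939 and 3310 counts in TET1-CD cells, a log2 fold change of 5.02 (SE 0.08, adjusted p = 4.9e-10 by edgeR's quasi-likelihood test). Reads of the cloned domain and of the endogenous gene are not separated in the tables. Of 8 urothelial markers, the differentiation markers KRT20 and UPK1A, UPK1B, UPK2 and UPK3A had 0 to 6 counts. The urothelial transcription factors FOXA1 and PPARG were expressed (366 to 587 and 363 to 461 counts), and GATA3 had 19 to 46. The list summed to 857 and 815 normalized counts in control and 982 and 1047 in TET1-CD libraries, and GATA3 and FOXA1 rose (log2 fold changes 1.25 and 0.37, adjusted p = 0.0163 and 0.0204). Epithelial markers summed to 43515 to 43853 normalized counts in control and 48859 to 49538 in TET1-CD libraries. Nearly all came from KRT7 and KRT18, which rose, and KRT8, which did not (log2 fold change -0.08), while KRT5, CDH1 and TP63 had 0 to 2 counts. KRT19 rose from 103 and 66 to 165 and 169 counts (log2 fold change 1.01, adjusted p = 0.00273). EPCAM was not called (log2 fold change 0.54). Mesenchymal markers summed to 134561 and 135230 against 106850 and 110700, nearly all from VIM and FN1, which fell. CDH2 and ZEB1 showed no clear change (log2 fold changes -0.04 and 0.09), and TWIST1 had 0 counts. Fibroblast markers summed to 19.4 and 20.3 normalized counts in control and 29.8 and 30.5 in TET1-CD libraries, with DCN, LUM, PDGFRA and COL1A2 at 0 to 4 counts. Immune markers summed to 470 and 639 against 450 and 442, nearly all from CD68, while PTPRC and CD3E had 0 to 2 counts. Endothelial markers, without PECAM1, summed to 12.9 to 21.9. In bulk RNA, fewer cells that express a gene and less RNA per cell cannot be told apart.

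Levels of different genes were compared by FPKM, which is scaled to transcript length and summed here over the transcripts of each gene. Such a sum gives more weight to counts on short transcripts. For SMAD2 in control replicate 1, ENST00000586514 carried 14.4% of the counts and 15.9 of the 39.2 FPKM. The orders below therefore depend on how the estimates were split among transcripts. In control cells the ligand RNAs were dominated by INHBA, which encodes the subunit of activin A, at 66.8 and 79.8 FPKM, and by TGFB1 at 42.1 and 43.0. GDF11 followed at 5.04 and 4.58, while TGFB2, INHBB and TGFB3 lay between 1.02 and 1.98 and BMP2, BMP4 and BMP6 between 0.19 and 0.38. TGFB2 and INHBB overlapped in the control libraries, so their order is not resolved. Among receptors, TGFBR2 (65.4 and 62.9) and the co-receptor ENG (58.4 and 56.1) stood above all others. TGFBR1, BMPR2, BMPR1A and ACVR1 formed a group between 12.5 and 14.8 FPKM whose neighbours overlapped, and ACVR2B (1.08 and 1.10) and BMPR1B (0.68 and 0.65) were lowest. The most abundant SMAD was SMAD3, at 82.5 and 82.6 FPKM. SMAD2 (39.2 and 37.8) and SMAD4 (38.1 and 35.5) overlapped, followed by SMAD5, SMAD1 and SMAD7, with SMAD6 at 0.42 and 0.83. The most abundant member of all was ID1, at 214 and 240 FPKM. At the other end, 4 members had too few counts for a test. GREM1 and BMP7 had 0 to 2 counts in each library, ID4 had 0 in all 4 and CHRD had 2 and 1 in control and 6 and 5 in TET1-CD libraries. A count of 0 in a library allows up to 3 counts, and this floor covers counting error only.

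**Figure D1:**
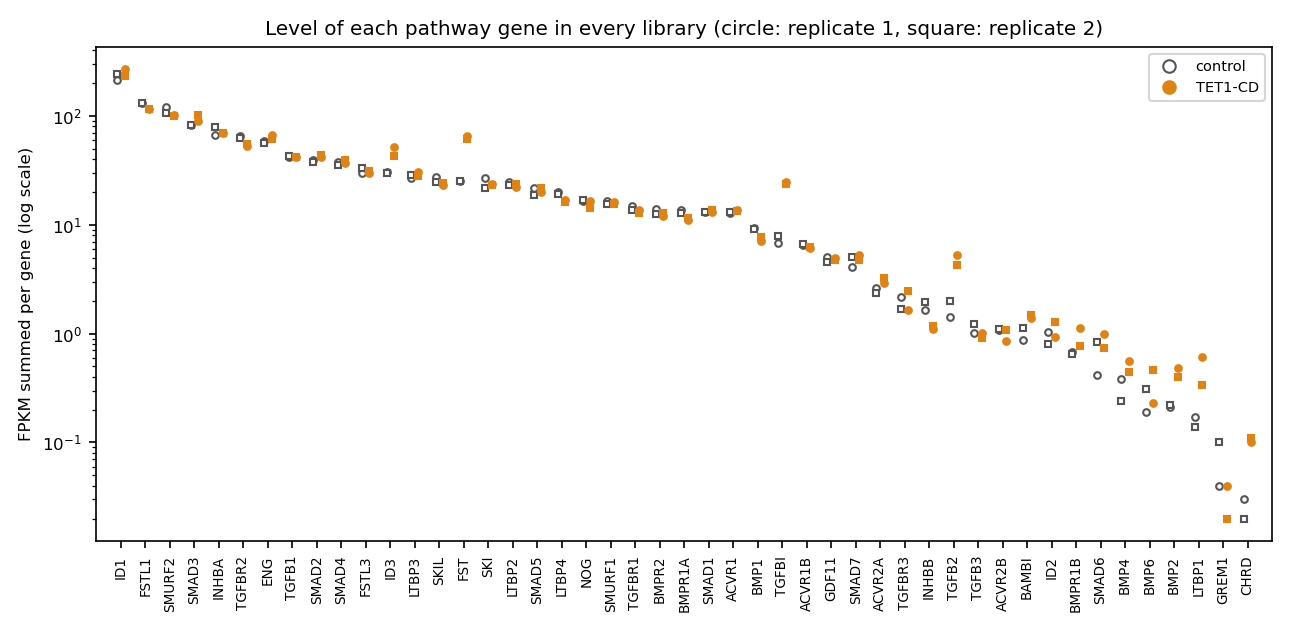
FPKM summed per gene, on a log scale, for the 47 members with a value above 0 in every library, ordered by their control mean; open symbols are control and filled symbols TET1-CD libraries, circles replicate 1 and squares replicate 2. ID1 is highest, at 214 to 267 FPKM, and the filled symbols of FST, TGFBI, TGFB2 and LTBP1 stand clear above the open ones.

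Between the groups, 15 of the 45 tested members (33.3%) had an adjusted p under 0.05 by edgeR's quasi-likelihood test, against 19.7% of the 14573 genes tested. The members were chosen with earlier results of these data known, so a share above that of all genes is a description only, here and below. The members that rose in TET1-CD cells were TGFBI, LTBP1, TGFB2, FST, BMPR1B and ID3, which is 6 members or 13.3%, against 10.0% of all genes. The members that fell were INHBB, LTBP4, ACVR2B, BMP1, FSTL1, TGFBR2, SKIL, SMURF2 and TGFBR1, which is 9 members or 20%, against 9.61% of all genes. Only rises reached a fold change of 2. They were TGFBI, LTBP1, TGFB2 and FST, 8.89% of members tested, against 3.77% of all genes tested in either direction, 2.72% among rises and 1.04% among falls. The largest fall, that of INHBB, was 1.58-fold. The median log2 fold change was -0.02 over the members and 0.00 over all genes tested, with 20 members above 0 and 25 below. The libraries of the groups did not overlap, in normalized counts, for 31 members (68.9%), against 61.0% of all genes tested. The remaining 30 tested members were not called, and their 95% intervals are given with them below.

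The calls rested on the libraries to different degrees. TGFBI, TGFB2, FST and ID3 were called under all 13 alternatives, and LTBP4 whenever any single library was left out. The other called members had smaller changes or few counts. Without TET1-CD replicate 1, 5 members were called (11.1%, against 8.10% of all genes tested), and without TET1-CD replicate 2, 7 were called (15.6%, against 8.82%), which in each case removed all calls among the receptors. DESeq2 called 10 members (22.2%, against 11.9% of all genes) and did not call INHBB (adjusted p = 0.152), BMP1 (0.0601), TGFBR1 (0.144), ACVR2B (0.127) or BMPR1B (0.261). No called member changed sign under an alternative.

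**Figure D2:**
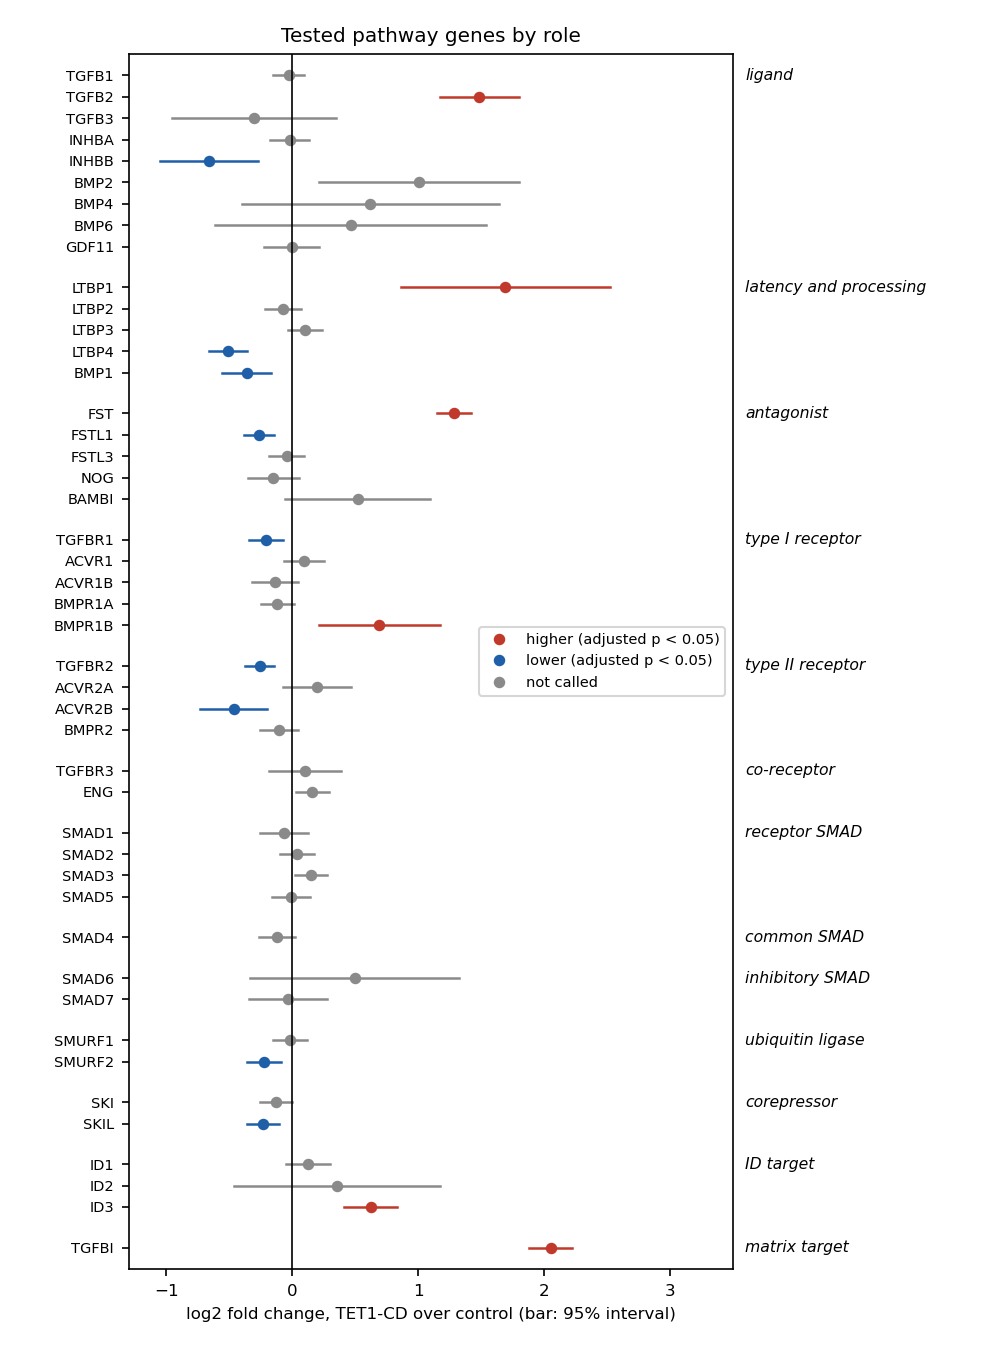
Log2 fold change (TET1-CD over control, 2 libraries each) of the 45 tested members, grouped by role, with points for the edgeR estimate and bars for its 95% interval. Of the members, 6 are red (higher), 9 blue (lower) and 30 grey (not called), and no blue point lies below -0.66.

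The promoters are shown for the 4 members whose calls held under every alternative, since TET1 acts on cytosine followed by guanine (CpG). Each window is the 250 bases before the start that RefSeq lists, on GRCh38.p14, written 5′ to 3′ on the strand of the gene, with every CpG in capitals. The windows are chr5:136028738-136028987 (plus strand) for TGFBI, chr1:218345086-218345335 (plus strand) for TGFB2, chr5:53480379-53480628 (plus strand) for FST and chr1:23559502-23559751 (minus strand) for ID3.
TGFBI: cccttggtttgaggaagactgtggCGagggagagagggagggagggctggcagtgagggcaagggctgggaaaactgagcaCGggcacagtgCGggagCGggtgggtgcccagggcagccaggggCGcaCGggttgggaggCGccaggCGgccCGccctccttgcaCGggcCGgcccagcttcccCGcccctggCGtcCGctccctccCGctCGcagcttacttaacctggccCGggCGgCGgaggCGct
TGFB2: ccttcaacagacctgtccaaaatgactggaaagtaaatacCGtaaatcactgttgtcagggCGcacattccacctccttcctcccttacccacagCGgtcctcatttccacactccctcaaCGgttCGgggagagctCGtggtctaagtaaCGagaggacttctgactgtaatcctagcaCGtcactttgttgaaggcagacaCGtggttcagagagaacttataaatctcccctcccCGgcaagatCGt
FST: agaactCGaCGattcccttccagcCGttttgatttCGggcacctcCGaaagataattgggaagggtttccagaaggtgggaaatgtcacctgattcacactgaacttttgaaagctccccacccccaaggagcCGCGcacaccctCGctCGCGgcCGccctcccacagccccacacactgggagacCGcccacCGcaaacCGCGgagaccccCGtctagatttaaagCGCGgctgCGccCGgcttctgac
ID3: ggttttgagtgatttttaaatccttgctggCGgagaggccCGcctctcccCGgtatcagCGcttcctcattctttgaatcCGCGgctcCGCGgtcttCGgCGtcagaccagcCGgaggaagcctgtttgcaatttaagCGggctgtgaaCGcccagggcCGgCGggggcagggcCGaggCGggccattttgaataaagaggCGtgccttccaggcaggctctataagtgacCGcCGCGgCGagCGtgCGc
The windows of TGFBI and FST held 20 CpG each, that of ID3 24 and that of TGFB2 11, where 250 bases before a start held a median of 21 over the 9852 tested genes with an entry and of 11 over all 27305 promoters. The 44 members with an entry had a median of 25 CpG. Their observed to expected CpG ratio was at least 0.6 in 38 of 44 (86.4%), against 80.0% of tested genes and 47.4% of all promoters. It was so in all 6 members that rose, in 7 of the 8 that fell and in 22 of the 27 tested members not called. The exception among those that fell was LTBP4, with 4 CpG. Only the first listed start of each gene was read, and 15 of the 44 members, LTBP4 among them, had more than 1. The SMAD motif CAGAC, searched on both strands, was found in 15 member windows (34.1%), against 35.9% of tested genes and 37.8% of all promoters, and TGFB2 held 2 and ID3 1. The palindrome GGCGCC, a GC-rich SMAD motif, was found in 16 (36.4%), against 26.2% and 16.1%, and TGFBI held 1. Matches of the motifs may share an end base. DNA methylation was not measured in these libraries, and a match describes letters only.

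Among the 9 ligands tested, 1 rose and 1 fell. TGFB2 encodes a TGF-beta ligand (chromosome 1, 218519577 to 218617961, GRCh37). It had 116 and 132 normalized counts, that is counts scaled to a common library size, in control and 385 and 310 in TET1-CD libraries. Both TET1-CD libraries were thus more than 2-fold above both control libraries. The log2 fold change was 1.49 (SE 0.14, adjusted p = 9.19e-05), which is 2.80-fold, and its FPKM went from 1.42 and 1.98 to 5.30 and 4.31. INHBB, the subunit of activin B, had 99.7 and 118 normalized counts in control and 66.0 and 70.5 in TET1-CD cells, so that the groups did not overlap. It fell by 36.9% (log2 fold change -0.66, SE 0.17, adjusted p = 0.0252). Without control replicate 2 its adjusted p was 0.0753, and without either TET1-CD library it was 0.146 or 0.0893.

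The abundant ligands were not called. TGFB1, the main TGF-beta of most tissues, had 2154 and 2236 normalized counts against 2156 and 2143, with a 95% interval of the log2 fold change from -0.15 to 0.09. Reads of TGFB1 may be shared with HNRNPUL1, which overlaps it on the opposite strand, since the use of strand in the counting is not given in the sources used here. The same limit holds for GDF11 with SARNP, TGFB3 with IFT43 and BMP6 with TXNDC5, which had 3740 to 5000 counts. INHBA had 5720 and 6692 against 6121 and 6100, with an interval from -0.18 to 0.14, and the control libraries enclosed the TET1-CD ones. GDF11, a growth factor close to myostatin, had an interval from -0.22 to 0.21. The BMP ligands were scarce. BMP2 had 15 and 14 counts in control and 30 and 28 in TET1-CD libraries, which did not overlap, but its log2 fold change of 1.01 was not called (adjusted p = 0.075). BMP4 (8 to 15 counts), BMP6 (11 to 25) and TGFB3 (31 to 42) had intervals from -0.40 to 1.64, -0.61 to 1.54 and -0.96 to 0.35, so that smaller changes were not detectable at this depth.

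Of the 5 latency and processing factors, LTBP1 rose and LTBP4 and BMP1 fell. LTBP proteins tie latent TGF-beta to the extracellular matrix. LTBP1 (chromosome 2, 33172039 to 33624576) had 12 counts in each control library, against 44 and 33 with TET1-CD. The counts were low, with 0.14 to 0.17 FPKM in control, but the groups were well apart. Its log2 fold change was 1.69 (SE 0.37, adjusted p = 0.0116), or 3.23-fold, and the adjusted p was 0.121 without TET1-CD replicate 1. LTBP4 (chromosome 19, 41098789 to 41135725) had 1127 and 1131 normalized counts in control and 760 and 822 in TET1-CD cells. It fell by 29.9% (log2 fold change -0.51, SE 0.07, adjusted p = 7.43e-04). In FPKM the fall was smaller, at a mean of 19.6 against 16.5. The share of its counts on the transcript ENST00000308370 was 76.7% and 68.2% in control and 53.3% and 58.2% in TET1-CD libraries.

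BMP1, a protease that trims procollagens and frees latent growth factors, had 563 and 584 normalized counts in control and 421 and 469 in TET1-CD cells. It fell by 22.3% (log2 fold change -0.36, SE 0.09, adjusted p = 0.0178), and its adjusted p was 0.173 without TET1-CD replicate 1. LTBP2 and LTBP3 were abundant and not called, with intervals from -0.21 to 0.07 and -0.03 to 0.23. LTBP3 also binds latent TGF-beta, and at 26.8 to 30.3 FPKM it stood above LTBP1 (0.14 to 0.61 FPKM) in every library.

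Of the 5 antagonists tested, FST rose and FSTL1 fell. FST encodes follistatin, the secreted protein that captures activins (chromosome 5, 52776239 to 52782964). It had 1100 and 1123 normalized counts in control and 2786 and 2634 in TET1-CD cells. Replicates lay close together and the groups far apart. This is a log2 fold change of 1.29 (SE 0.06, adjusted p = 6.25e-07), 2.44-fold, and its range over all alternatives was 1.25 to 1.33. The transcripts ENST00000256759 and ENST00000396947 carried 66.3% to 78.7% and 18.1% to 30.4% of its counts, and the FPKM of both was higher in both TET1-CD libraries. Follistatin RNA therefore rose while INHBA, its most abundant activin partner in these cells, was not called and INHBB fell.

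FSTL1, a secreted glycoprotein with a follistatin domain, had 9189 and 9618 normalized counts in control and 7950 and 7703 in TET1-CD cells. The groups did not overlap, and it fell by 16.8% (log2 fold change -0.26, SE 0.05, adjusted p = 0.00752). Its adjusted p was 0.0923 and 0.146 without TET1-CD replicates 1 and 2. FSTL3, a second activin-binding protein, was not called, with an interval from -0.18 to 0.09. The BMP antagonist NOG had an interval from -0.35 to 0.05. BAMBI, a receptor without a kinase that dampens TGF-beta signaling, had 33 and 37 counts against 46 and 54, did not overlap and was not called (log2 fold change 0.52, interval -0.05 to 1.10).

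**Figure D3:**
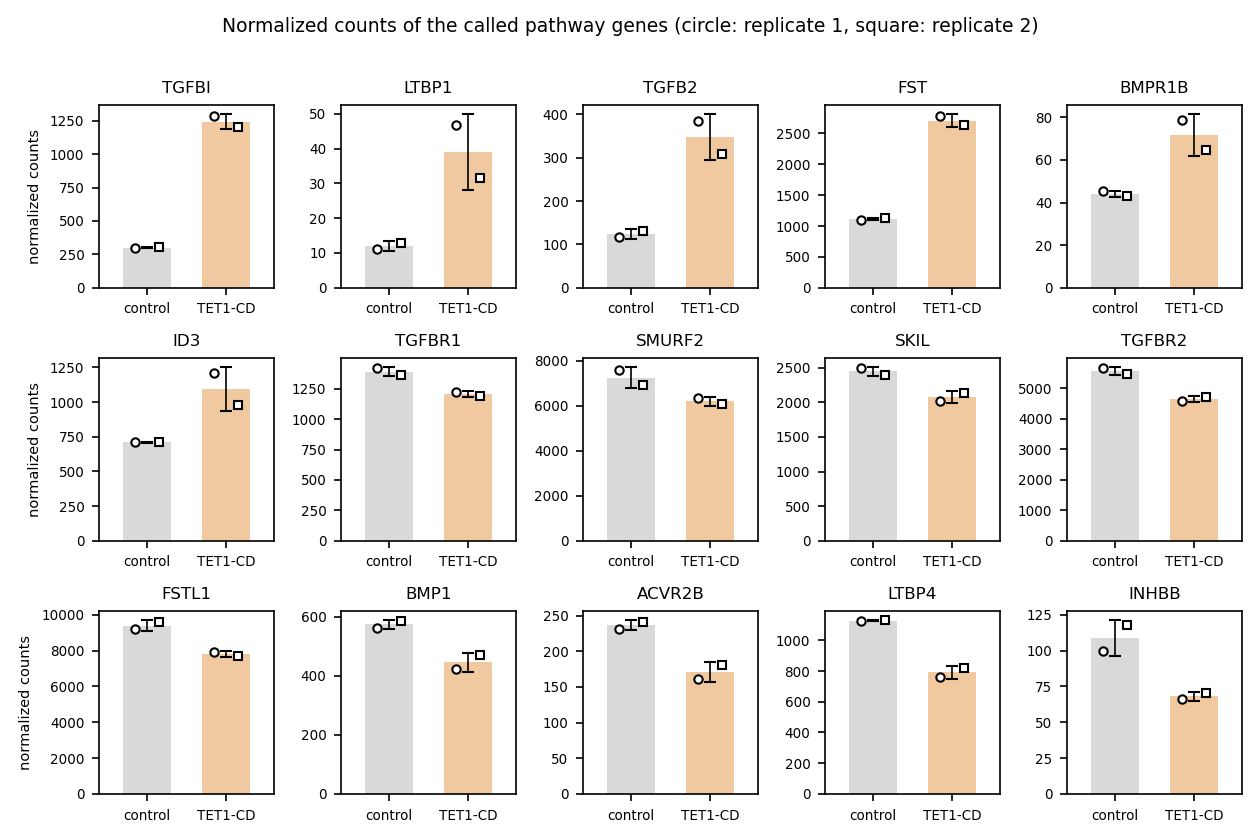
Normalized counts of the 15 called members in each library, with bars for the mean of 2 libraries and error bars for the SD; axes start at 0, circles are replicate 1 and squares replicate 2. In each panel the libraries of the groups do not overlap, and the ratio of means is largest for TGFBI, from 300 ± 3.55 in control to 1244 ± 58.4 in TET1-CD cells.

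Of the 11 receptors, 3 fell and 1 rose. The pair that binds TGF-beta fell in both of its parts. TGFBR2, the type II receptor (chromosome 3, 30647994 to 30735634), had 5656 and 5466 normalized counts in control and 4587 and 4704 in TET1-CD cells. It fell by 16.5% (log2 fold change -0.26, SE 0.05, adjusted p = 0.00759). TGFBR1, its type I partner (chromosome 9, 101866320 to 101916474), had 1417 and 1364 against 1223 and 1187 and fell by 13.4% (log2 fold change -0.21, SE 0.06, adjusted p = 0.0356). Neither pair of groups overlapped, and both changes were well under 2-fold. Without TET1-CD replicates 1 and 2 the adjusted p of TGFBR2 was 0.149 and 0.0877 and that of TGFBR1 0.19 and 0.305.

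The activin type II receptor ACVR2B (chromosome 3, 38495342 to 38534633) had 232 and 242 normalized counts in control and 161 and 181 in TET1-CD cells. It fell by 27.6% (log2 fold change -0.47, SE 0.12, adjusted p = 0.0217), and its adjusted p was 0.202 and 0.0642 without TET1-CD replicates 1 and 2. On the FPKM scale with a pseudocount of 1 its change was only -0.09. Its relative ACVR2A, which ORC4 overlaps on the opposite strand, was not called, with an interval from -0.08 to 0.47. BMPR1B, a BMP type I receptor, had 49 and 40 counts in control and 74 and 68 in TET1-CD libraries, which did not overlap. Its log2 fold change was 0.69 (SE 0.22, adjusted p = 0.0489), 1.62-fold, and the adjusted p was above 0.05 with each library left out in turn, from 0.0849 to 0.339. BMPR1A, the more abundant BMP type I receptor, had an interval from -0.25 to 0.01. ACVR1, ACVR1B, BMPR2 and TGFBR3 were not called either, and all values of their intervals lay between -0.32 and 0.39. The co-receptor ENG had 3311 and 3197 against 3802 and 3476 normalized counts, did not overlap, and was not called (log2 fold change 0.16, adjusted p = 0.09).

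None of the 7 SMADs was called by edgeR's quasi-likelihood test, by limma-voom or by DESeq2, and 1 had an unadjusted p under 0.05. This was SMAD3, which carries TGF-beta and activin signals. It had 6961 and 7331 normalized counts in control and 7672 and 8203 in TET1-CD cells, and the groups did not overlap. Its log2 fold change of 0.15 (interval 0.02 to 0.28) gave an adjusted p of 0.091, and lay between 0.10 and 0.20 with 1 library left out. SMAD2, its partner in the same branch, had an interval from -0.09 to 0.17, and the common partner SMAD4 one from -0.27 to 0.02. The BMP branch SMADs, SMAD1 and SMAD5, had intervals from -0.26 to 0.13 and -0.16 to 0.14. The intervals of these 5 SMADs thus stayed within -0.27 and 0.28. SMAD7, an inhibitory SMAD induced by the pathway, had 198 and 248 against 235 and 200 normalized counts, which overlapped. SMAD6, the other inhibitory SMAD, had only 16 to 26 counts, with an interval from -0.33 to 1.32.

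Of the 4 regulators that act on SMADs in the cell, SMURF2 and SKIL fell. SMURF2, a ubiquitin ligase that marks receptors and SMADs for degradation, had 7584 and 6909 normalized counts in control and 6332 and 6066 in TET1-CD cells. It fell by 14.5% (log2 fold change -0.23, SE 0.06, adjusted p = 0.0262). CEP95, with 394 to 539 counts, overlaps it on the opposite strand. SKIL, a SMAD corepressor whose gene TGF-beta is known to induce, had 2492 and 2401 against 2021 and 2141 and fell by 14.9% (log2 fold change -0.23, SE 0.06, adjusted p = 0.019). Both sets of libraries were separate, but neither call held without TET1-CD replicate 1 (adjusted p = 0.144 and 0.258) or replicate 2 (0.266 and 0.0946). Their relatives SMURF1 and SKI were not called, with intervals from -0.15 to 0.12 and -0.26 to 0.00.

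ID genes encode inhibitors of helix-loop-helix factors and are standard BMP targets. ID3 (chromosome 1, 23884409 to 23886285) had 711 and 709 normalized counts in control and 1207 and 982 in TET1-CD cells. Both TET1-CD libraries were above control, with a wider spread than the control pair. The log2 fold change was 0.62 (SE 0.09, adjusted p = 0.00171), 1.54-fold. ID1, with 4017 and 4535 against 4990 and 4336 normalized counts, overlapped between the groups and was not called (interval -0.05 to 0.30). With 1 library left out, the log2 fold change of ID1 ran from 0.02 to 0.22. ID2 had 14 to 27 counts and an interval from -0.46 to 1.17.

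TGFBI, a secreted matrix protein named for its induction by TGF-beta, changed most of all members (chromosome 5, 135364584 to 135399507). It had 297 and 302 normalized counts in control and 1286 and 1203 in TET1-CD cells, and the groups were far apart. Its log2 fold change was 2.05 (SE 0.08, adjusted p = 1.33e-07), 4.15-fold, and its FPKM went from 6.75 and 7.85 to 24.8 and 23.6. The transcript ENST00000442011 carried 88.4% and 73.4% of its counts in control and 97.9% and 96.1% in TET1-CD libraries. SMAD5, the neighbour of TGFBI 69.0 kb away, was not called.

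The wider pathway was read from 7 further lists with 112 genes, some of them in more than 1 list. They were chosen with results of these data known, so a share above that of all genes is a description only. Of 68 genes tested, each counted once, edgeR called 29 (42.6%, against 19.7% of all genes), 19 higher and 10 lower. DESeq2 called 20, where it called 11.9% of all genes. The 2 tested genes among 23 other ligands and the 4 tested among 11 other receptors were not called. Of the 5 other antagonists tested, 2 rose and 2 fell. CRIM1, which binds BMPs at the cell surface, went from 5936 and 5195 to 9609 and 9036 normalized counts (log2 fold change 0.74, adjusted p = 8.49e-05). The secreted BMP binder CHRDL1 fell by 49.9%, from 387 and 311 to 168 and 182 (adjusted p = 7.36e-04), and BMPER, another, went from 258 and 250 to 147 and 146 (log2 fold change -0.80, adjusted p = 0.00126). In all 3 the libraries of the groups were separate.

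Of the 9 tested genes in a list of factors that hold, free or activate latent TGF-beta or BMPs, 3 rose and 2 fell. ITGB8, an integrin subunit that activates latent TGF-beta, fell from 742 and 722 to 321 and 329 normalized counts, 2.25-fold (log2 fold change -1.17, adjusted p = 1.36e-05). THBS1, a matrix protein that frees TGF-beta, rose from 2769 and 2560 to 4560 and 3624 (log2 fold change 0.62, adjusted p = 0.00188), and the microfibril gene FBN1 rose by 0.43 (adjusted p = 0.00233). The tolloid proteases, relatives of BMP1, moved in opposite directions on few counts. TLL1 had 13 and 8 counts against 25 and 37 (log2 fold change 1.56, adjusted p = 0.0209), and TLL2 75 and 66 against 21 and 36 (log2 fold change -1.29, adjusted p = 0.00759). TLL1 had an adjusted p of 0.17 without TET1-CD replicate 2, and TLL2 one of 0.0589 without TET1-CD replicate 1. Of 19 other intracellular regulators, 3 rose and 2 fell. SMAD9, among those that rose, is counted again with the BMP targets below. FKBP1A, which binds type I receptors inside the cell, fell by 22.4% and the feedback inhibitor PMEPA1 rose by 35.1% (log2 fold changes -0.37 and 0.43, adjusted p = 0.00129 and 0.00233). UCHL5, a deubiquitinase that binds SMADs, rose by 21.7% (adjusted p = 0.0101), and its adjusted p was 0.144 and 0.0663 without TET1-CD replicates 1 and 2.

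Genes known as TGF-beta and activin targets moved both ways. All 23 were tested, 8 rose and 5 fell, and their median log2 fold change was 0.03. COL1A1, a collagen chain, had 88 and 70 counts in control and 266 and 314 in TET1-CD libraries (log2 fold change 1.89, adjusted p = 1.03e-05). TAGLN, an actin-binding protein of smooth muscle, rose from 914 and 901 to 2218 and 2072 normalized counts (log2 fold change 1.24, adjusted p = 1.12e-06). SPHK1, a sphingosine kinase, rose by 56.4% (adjusted p = 6.54e-05). HMGA2, a chromatin protein of mesenchymal cells, fell from 5343 and 5316 to 3576 and 3515 (log2 fold change -0.59, adjusted p = 5.57e-05). The libraries of each of these genes were separate between the groups, as were those of 61.0% of all genes tested. These genes were named for their calls, so the separation adds no further support. The called targets of the same pathway thus lay in both directions. SNAI1, a repressor of epithelial genes, had 12 and 31 counts against 54 and 56, and its log2 fold change of 1.35 (adjusted p = 0.0397) was called in 1 of the 4 fits with a library left out. Its adjusted p was 0.119 without control replicate 1, where the log2 fold change was 0.72, and 0.122 and 0.0836 without TET1-CD replicates 1 and 2.

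Of 9 tested BMP targets, edgeR called 5 higher and none lower, where 10.0% of all genes rose and 9.61% fell. Their median log2 fold change was 0.51. DESeq2 called MSX1 and GATA2 but not GATA3, HES1 or SMAD9 (adjusted p = 0.0886, 0.137 and 0.0548). HES1, a repressor shared with the Notch pathway and named after its values were seen, had 144 and 133 counts against 200 and 190 (log2 fold change 0.51, adjusted p = 0.0262), with an adjusted p of 0.0524 without control replicate 1 and 0.238 without TET1-CD replicate 1. The ID genes, members described above, are not counted among the 9 targets. Of them ID3 rose, while ID1 and ID2 were not called. MSX1, a homeobox gene, rose from 302 and 333 to 551 and 582 normalized counts (log2 fold change 0.84, adjusted p = 2.75e-04), and GATA2, a zinc finger factor, from 343 and 262 to 536 and 482 (log2 fold change 0.74, adjusted p = 0.00316). GATA3 had 19 and 19 counts against 46 and 44 (log2 fold change 1.25, adjusted p = 0.0163), with an adjusted p of 0.127 and 0.0528 without TET1-CD replicates 1 and 2. SMAD9, a BMP branch SMAD, had 70 and 34 counts against 98 and 99 (log2 fold change 0.95, adjusted p = 0.023), with an adjusted p of 0.0505 without control replicate 2 and 0.101 without TET1-CD replicate 1. GATA3 also counts as a urothelial marker. The lists were written with results of these data known, so their counts are descriptions.

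**Figure D4:**
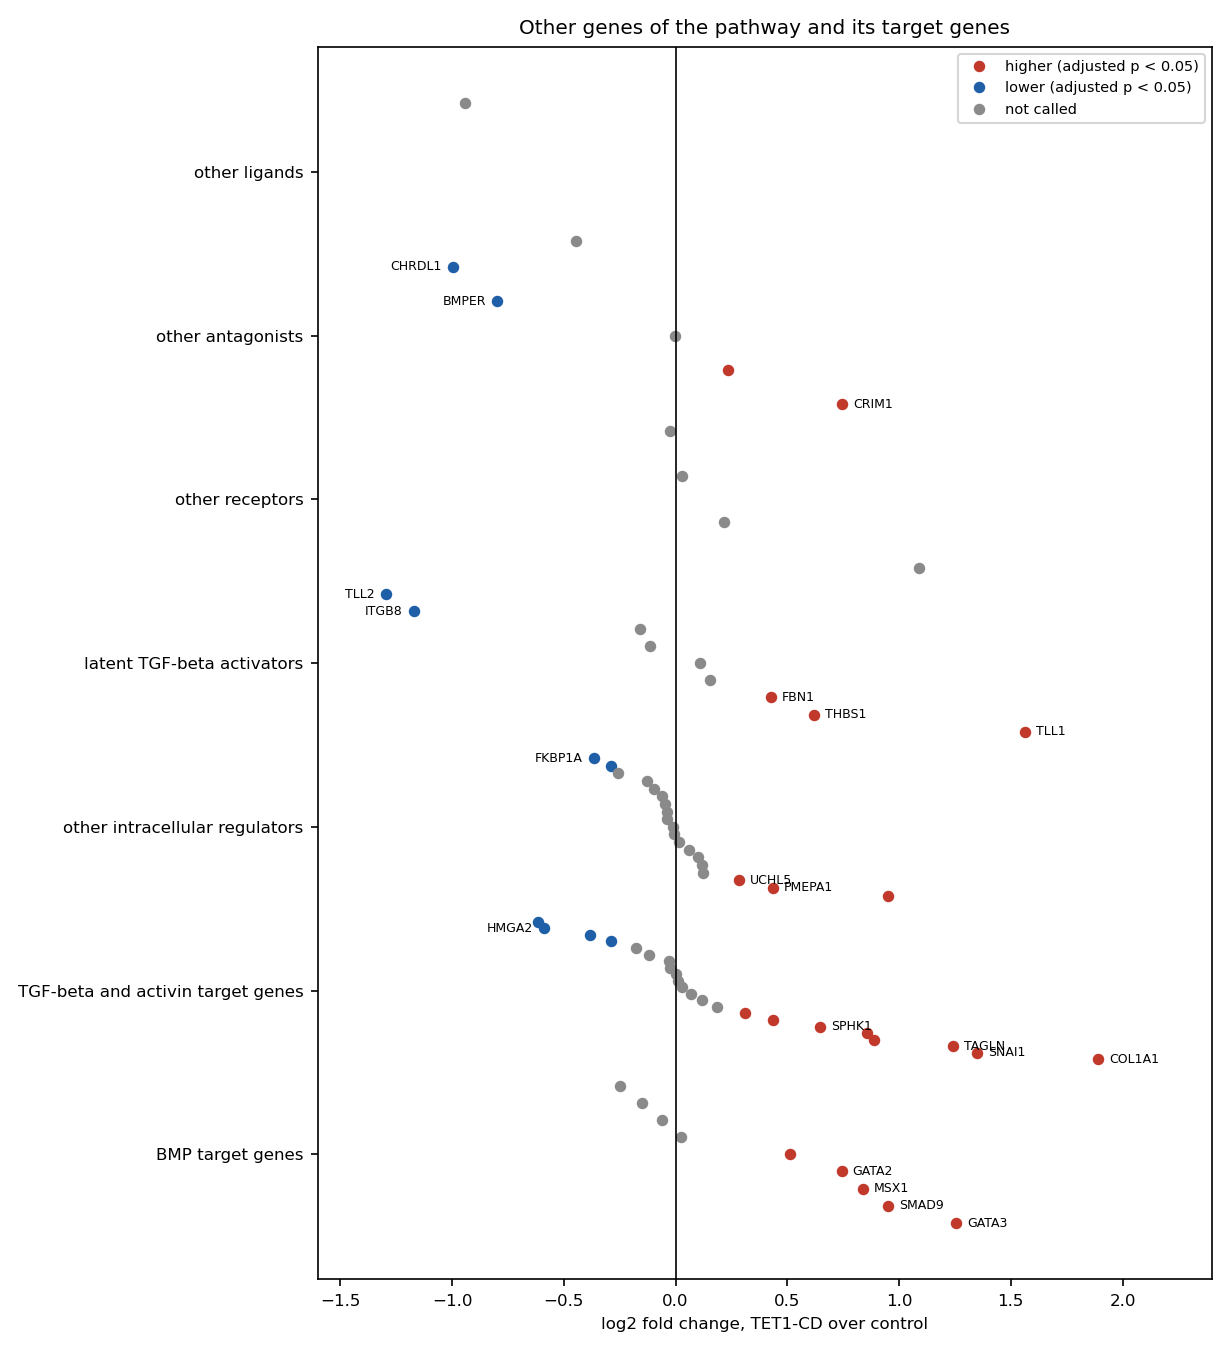
Log2 fold change (TET1-CD over control) of 67 of the 68 tested genes of the 7 further lists, 1 point per gene and list, red for higher, blue for lower and grey for not called; the vertical position within a list only spreads the points. Target genes of TGF-beta and activin lie on both sides of 0, from -0.62 to 1.89, and the 5 called BMP targets lie above 0.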

How the data were processed

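RNAseq of T24 cells gave 2 control and 2 TET1-CD libraries. Total RNA was sequenced after poly(A) selection or removal of rRNA. The authors deposited expected counts (estimated fragments) for 195700 transcripts in each library. FPKM values, which the authors scaled by length and by depth, stand beside them, with hg19 coordinates. The submitters' processing notes name cutadapt 1.9.1, HISAT2 2.0.1, HTSeq 0.6.1, DESeq2 and hg19. The tool behind the fractional counts and the use of strand are not given in the sources used here.

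For each gene, the expected counts of its transcripts were added up and rounded, and likewise its FPKM values. Groups follow the sample titles. Of all genes, 14573 passed filterByExpr and were tested by edgeR 4.0.16 in R 4.3.3 (glmQLFit and glmQLFTest, TMM normalization, factors 0.993 to 1.005, no block) with Benjamini-Hochberg adjustment over all of them. A gene was called at an adjusted p under 0.05. Standard errors come from the log2 fold change and its F statistic, and intervals are 95% intervals of the same fit. Replicates differed beyond sampling noise (chi-square per gene 6.13 in control, 2.68 in TET1-CD cells). This does not tell separate cultures from repeats of the same RNA, and each library entered the fit on its own. All 49 members are accounted for by role. Called members with separate libraries are named with every library, as are, of each further list, the called genes with a fold change of 2 and up to 3 more with the smallest p. The values of some genes of the lists are not reported here. The members and lists were chosen with earlier results of these data known. CpG and motif counts used RefSeq promoters (GRCh38.p14, first listed start, 44 of 49 members matched by symbol). Alternatives were RLE factors, scaling by library size only, a stricter filter (10 counts in every library) or none, a replicate block, the omission of each library, limma 3.58.1 (voom, and on log2 FPKM with a pseudocount of 1 or 0.1) and DESeq2 1.42.0.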

Additional observations from a re-analysis of the deposited data

How the results depend on the processing

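Over 13 alternatives, TGFBI, TGFB2, FST and ID3 stayed called, LTBP4 was lost only on FPKM values, and no called member or called gene of the further lists changed sign. The number of members called was 15 with RLE factors, library size only, no filter and the replicate block, 16 with 10 counts in every library and 14 with limma-voom. DESeq2 called 10 (without INHBB, BMP1, TGFBR1, ACVR2B and BMPR1B), of which 5 were lower, and 1739 of all genes. On log2 FPKM with a pseudocount of 1, limma called 6 members (2 lower) and 1564 genes, 148 of them with a fold change of 2, and the members' median log2 fold change was 0.0299. With a pseudocount of 0.1 it called 6 members (2 lower), 1595 genes and 19 genes of the further lists, with a median of 0.0313. With 10 counts in every library, 332 genes had a fold change of 2. BMP2 was then called too (adjusted p = 0.0457).

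With 1 library left out, and the lone library of a group assumed to vary like the others, 1180 to 3836 genes, 5 to 18 members, 1 to 11 members lower and 17 to 31 genes of the further lists were called. The fewest came without TET1-CD replicate 1 and the most members without control replicate 2. The members' median then lay between -0.0256 and 0.0260. Without control replicate 2, BMPR1A, BMPR2, ID1, SKI and SMAD3 were called besides members of the main fit. Without control replicate 1, ENG and INHBA were. The cause was not tested for any of these shifts.

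The members that changed sign were not called in the main fit. Their log2 fold changes there lay between -0.12 and 0.10, except for BMP6 at 0.46. With library size only, GDF11 stood at 0.0075 and SMAD5 at 0.0019. On log2 FPKM with a pseudocount of 1 and of 0.1, GDF11 was at 0.0085 and 0.010, SMAD1 at 0.026 and 0.028, SMAD5 at 0.030 and 0.031, SMAD4 at 0.051 and 0.052, and SMAD7 at 0.12 and 0.15. With 1 library left out, log2 fold changes ran from -0.068 to 0.060 for GDF11, from -0.087 to 0.068 for SMAD5, from -0.062 to 0.026 for SMURF1, from -0.14 to 0.095 for INHBA, from -0.10 to 0.0074 for FSTL3, from -0.20 to 0.13 for SMAD7, from -0.15 to 0.87 for BMP6, from -0.051 to 0.24 for TGFBR3 and from -0.0081 to 0.082 for SMAD2.

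The groups share replicate numbers, but no source says that a number marks a shared culture or day. Deviations of same-numbered libraries correlated with r = 0.0071 over all genes, so the numbers were not taken as pairs. The replicate block gave 3235 genes and the same 15 members. Depth limits members with few counts, such as BMP4, BMP6, SMAD6 and ID2, whose intervals span more than 1 log2 unit.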

Other observations

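The genes next to the 4 members that rose at least 2-fold were read as values. The nearest 2 tested genes on each side of TGFB2, LTBP1, FST and TGFBI make 16 neighbours. Of these, CRIM1, which lies 2958 kb from LTBP1, was called by edgeR (log2 fold change 0.74, adjusted p = 8.49e-05). RRP15, a ribosome biogenesis gene 8.25 kb from TGFB2, had 976 and 764 counts in control and 949 and 1034 in TET1-CD libraries, with a log2 fold change of 0.21 (adjusted p = 0.0618). NDUFS4, a subunit of respiratory complex I 73.5 kb from FST, had a log2 fold change of 0.02, and SMAD5, 69.0 kb from TGFBI, one of -0.01.

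The transcript ENST00000366930 carried 93.9% and 56.0% of the counts of TGFB2 in control and 88.0% and 89.3% in TET1-CD libraries, so the control libraries differed in how the estimates were split.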
